A study of Mus musculus with 19 samples.

Results

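The 8 genes described here encode matricellular proteins and components of the provisional matrix: Tnc, Thbs1, Thbs2, Postn, Sparc, Spp1, Fn1 and Vcan. They were chosen by name, with earlier results of these data known, and their Ensembl identifiers were matched to mouse symbols. All 8 were among the 55487 identifiers of the count matrix, and all 8 were among the 15138 genes that passed the filter on low counts and were tested. Gene expression was measured in hepatic stellate cells (HSCs), the vitamin A-storing pericytes of the liver, which had been sorted by their ultraviolet fluorescence. The donors were male Balb/c mice of 23 to 24 weeks, healthy and with no induced liver injury. Cells were taken at 0 h without culture, or after 3, 6, 12, 18, 24 or 96 h on collagen-coated plastic in DMEM with 10% fetal bovine serum, with the medium renewed after 3 h and 24 h. There were 3 samples at 5 of the timepoints and 2 samples at 0 h and 24 h, 19 in all, each made of 2 technical repeats. Culture on plastic is a model of activation without injury, and time in culture, serum and the medium changes cannot be told apart in this design.

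Matricellular proteins are secreted into the extracellular matrix but do not mainly build its fibres. They bind collagen, integrins, proteoglycans and growth factors, and adult tissues make them mostly during wound healing and remodelling. The provisional matrix is the early scaffold of a wound, in which fibronectin and the hyaluronan-binding proteoglycan versican are deposited before fibrillar collagen. In the liver, HSCs that turn into myofibroblasts are a main source of this matrix.

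The libraries held 2073171 to 7690892 counts each (median 4954915), so that a count of 3, the limit set by a count of 0, was worth 0.386 to 1.51 CPM, the count scaled to a fixed library total. All levels below are CPM scaled with trimmed mean of M-values (TMM) factors, and the limit from a count of 0 covers counting error only. Values of a timepoint are listed in the order of the replicate numbers, which are 2 and 3 at 0 h and 1 and 2 at 24 h. The stellate markers identified the cells at 0 h, where all 10 were detected and together made 30957 to 35976 CPM. The same sum was 2082 to 2160 CPM at 24 h and 2644 to 3089 CPM at 96 h. Markers of activated stellate cells or myofibroblasts (6 genes) made 2835 to 3640 CPM at 0 h. Their sum was 1523 to 1763 CPM at 24 h and 5527 to 7713 CPM at 96 h. Hepatocyte markers (7 genes) made 3407 to 7164 CPM at 0 h, 425 to 1223 CPM at 3 h and 24.6 to 91.5 CPM at 96 h. In bulk samples, fewer cells of a type and less of these transcripts per cell cannot be told apart.

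A gene was called changed when edgeR's quasi-likelihood test gave an adjusted p below 0.1 and the fold was above 2. Against 0 h, 1 of the 8 genes was called at 3 h, where 5.58% of all tested genes were called. Then 4 of 8 were called at 6 h (11.3% of all tested genes) and 4 of 8 at 12 h (17.7%). At 18 h 5 of 8 were called (15.9%), at 24 h 5 of 8 (9.51%) and at 96 h 5 of 8 (10.9%). These 6 comparisons share the 0 h samples, and the 8 genes were chosen with earlier results of these data known. Vcan was called higher at all 6 timepoints, Tnc and Thbs1 were called higher from 6 h to 96 h, Spp1 was called lower at 6 h, Sparc was called higher at 96 h, Fn1 was called lower from 12 h on, and Thbs2 was called lower at 18 h and 24 h. The median absolute log2 change of the 8 genes was 0.29 at 3 h, 3.00 at 12 h and 2.52 at 96 h, beside 0.94, 1.38 and 1.14 over all tested genes. The 12 h median lay between the changes of Thbs2 (-2.49) and Spp1 (-3.51). Neither was called at 12 h, and Spp1 was near the limit of these libraries.

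Between neighbouring timepoints, 4 of 8 genes were called from 3 to 6 h (4.49% of all tested genes) and 1 of 8, Tnc, from 6 to 12 h (1.84%). None of the 8 was called by edgeR from 12 to 18 h (0.225%), where 1 had an unadjusted p below 0.05 and DESeq2 called 1, Thbs2. None was called from 18 to 24 h (0.0396%), by edgeR or DESeq2, and 2 had an unadjusted p below 0.05. From 24 to 96 h 1 of 8, Sparc, was called (2.72%). Across wider spans, 3 of 8 were called at 96 h against 6 h (13.2%) and 4 of 8 at 96 h against 12 h (13.5%).

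**Figure D1:**
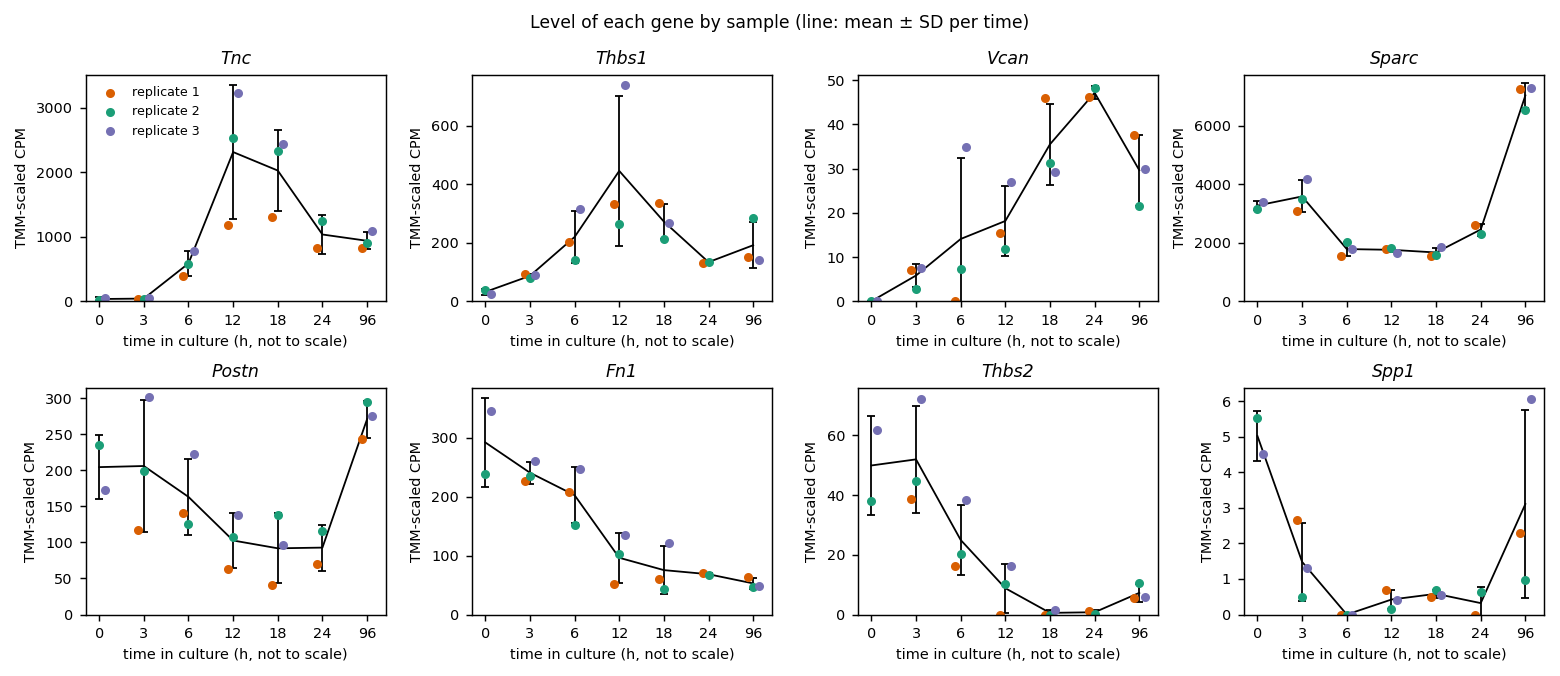
Level of each gene (y axis, TMM-scaled CPM on a linear axis from 0, scaled separately in each panel) against time in culture (x axis, h, equally spaced). Points are samples coloured by replicate number and the line joins the means, with bars of 1 SD. Tnc and Thbs1 have their highest mean at 12 h, Vcan at 24 h and Sparc and Postn at 96 h, while Fn1 is lowest at 96 h and Thbs2 is near 0 at 18 h and 24 h.

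The promoter regions of 4 of the genes are shown because their transcripts followed different courses: Tnc and Vcan rose early, Postn was high at both ends of the series, and Thbs2 fell. Each window runs from 250 bases before to 50 bases after a RefSeq transcript start in the GRCm38.p6 build, on the strand of the gene, and is the window whose start lies nearest to the GENCODE gene start. Capitals mark TATAAA on either strand, so that its reverse complement is read as TTTATA.
Tnc, chr4:64046966-64047265, minus strand: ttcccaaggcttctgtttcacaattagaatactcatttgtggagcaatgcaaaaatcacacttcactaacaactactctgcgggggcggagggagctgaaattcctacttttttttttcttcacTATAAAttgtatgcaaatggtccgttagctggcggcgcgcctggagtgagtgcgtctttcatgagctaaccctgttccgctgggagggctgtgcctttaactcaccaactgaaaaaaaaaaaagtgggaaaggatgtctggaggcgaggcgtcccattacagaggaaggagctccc
Vcan, chr13:89742463-89742762, minus strand: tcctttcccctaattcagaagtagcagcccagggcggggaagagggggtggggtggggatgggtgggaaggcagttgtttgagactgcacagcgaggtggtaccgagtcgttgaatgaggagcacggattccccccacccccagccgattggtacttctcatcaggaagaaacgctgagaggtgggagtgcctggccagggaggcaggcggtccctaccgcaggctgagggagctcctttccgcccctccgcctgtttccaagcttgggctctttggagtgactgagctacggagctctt
Postn, chr3:54360857-54361156, plus strand: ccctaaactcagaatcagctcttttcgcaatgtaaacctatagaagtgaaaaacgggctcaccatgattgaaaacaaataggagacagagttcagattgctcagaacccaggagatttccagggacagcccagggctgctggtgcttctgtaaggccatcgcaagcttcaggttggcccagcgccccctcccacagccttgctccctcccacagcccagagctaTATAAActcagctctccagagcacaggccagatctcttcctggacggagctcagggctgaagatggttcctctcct
Thbs2, chr17:14694213-14694512, minus strand: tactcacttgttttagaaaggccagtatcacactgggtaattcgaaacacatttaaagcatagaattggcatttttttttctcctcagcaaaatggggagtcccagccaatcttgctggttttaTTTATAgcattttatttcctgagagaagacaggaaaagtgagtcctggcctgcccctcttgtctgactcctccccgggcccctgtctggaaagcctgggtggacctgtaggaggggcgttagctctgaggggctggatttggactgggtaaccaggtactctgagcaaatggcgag
In the Postn window TATAAA lay 26 bases before the start, and in the Tnc and Thbs2 windows it lay 126 bases before. These distances depend on the start used. Tnc had another window, not shown, whose start lay 79 bases from the GENCODE gene start. There TATAAA lay 205 bases before the start. Vcan had no TATAAA and instead held 2 GC boxes (GGGCGG), whereas the Tnc window held 1. RefSeq windows were matched for 6 of the 8 genes, 9 windows in all. Over 32817 promoter windows of the same length, 13.6% held TATAAA and 35.6% held GGGCGG on either strand. The CArG box of serum response factor (535 windows, 1.63%), the AP-1 site TGANTCA (7.81%) and the TEAD site GGAATG (14.7%) were not found in any of the 9 windows. A match is a description of the letters in the window, and the absence of a match says nothing of the factor.

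Tnc (chr4:63959785-64047015, minus strand) encodes tenascin C, a matricellular glycoprotein that is scarce in healthy adult liver and binds integrin alpha9 beta1. At 0 h the samples were at 15.5 and 53.2 CPM, and at 3 h at 39.5, 40.3 and 44.2 CPM. At 6 h they were at 396, 578 and 782 CPM, and at 12 h at 1187, 2525 and 3222 CPM. Every sample from 6 h on lay above every sample of 0 h and 3 h. The 18 h samples (1309, 2333 and 2432 CPM) spanned a range inside that of 12 h, and the levels were 825 and 1243 CPM at 24 h and 824, 902 and 1084 CPM at 96 h. Tnc did not pass the test at 3 h (log2 change 0.29 ± 0.47 SE, adjusted p = 0.876 in edgeR). It rose by 3.82 ± 0.45 SE on the log2 scale from 3 to 6 h (adjusted p = 0.000316) and by 1.98 ± 0.42 SE from 6 to 12 h (adjusted p = 0.0232). At 12 h it was 68.5-fold above 0 h (log2 change 6.10 ± 0.61 SE, adjusted p = 3.71e-06). The 0 h samples differed widely, and within replicate 2 the log2 difference of 12 h from 0 h was 7.31 and within replicate 3 it was 5.91. From 12 to 96 h Tnc fell by 1.30 ± 0.41 SE on the log2 scale (adjusted p = 0.0513), and in all 3 replicates the 96 h sample was the lower. This fall was lost without replicate 3 at 12 h (log2 change -0.99, adjusted p = 0.204), replicate 2 at 12 h (adjusted p = 0.136), or replicate 1 or 2 at 96 h (adjusted p = 0.148 and 0.129). The rise from 6 to 12 h was not called without replicate 1 at 6 h (adjusted p = 0.107) or without replicate 3 at 12 h (adjusted p = 0.121).

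Thbs1 (chr2:118111876-118127133, plus strand) encodes thrombospondin 1, which binds CD36 and CD47 and can release TGF-beta from its latent complex. The samples were at 40.1 and 23.6 CPM at 0 h and at 91.9, 79.1 and 89.5 CPM at 3 h. At 6 h they were at 203, 142 and 315 CPM, and at 12 h at 333, 266 and 740.2 CPM, the last from replicate 3. Every cultured sample lay above both 0 h samples. Later levels were 335, 214 and 269 CPM at 18 h, 132 and 136 CPM at 24 h and 151, 283 and 141 CPM at 96 h. The 3 h difference missed the threshold in edgeR (log2 change 1.44 ± 0.46 SE, adjusted p = 0.105) and passed it in DESeq2 (adjusted p = 0.0386). Thbs1 was 13.9-fold above 0 h at 12 h (adjusted p = 7.96e-05) and 5.97-fold above it at 96 h (adjusted p = 0.00220). At 24 h it was 4.17-fold above 0 h, a call that was lost without replicate 3 at 0 h (adjusted p = 0.146). The rise from 3 to 6 h (log2 change 1.34 ± 0.39 SE, adjusted p = 0.0735) was not called with the replicate number as a block (adjusted p = 0.108), and of 6 fits that left out 1 sample it was called only in that without replicate 2 at 6 h; the adjusted p was 0.299 without replicate 3 at 6 h and 0.120 to 0.235 in the others. From 12 to 96 h Thbs1 was called lower (log2 change -1.22 ± 0.39 SE, adjusted p = 0.0561), but the difference within replicates was -1.13, 0.09 and -2.39. With the replicate block the adjusted p was 0.101, and without replicate 3 at 12 h the change was -0.64 (adjusted p = 0.320). The call was also lost without replicate 1 or 3 at 96 h (adjusted p = 0.173 and 0.188) and in a fit of the 2 groups alone (adjusted p = 0.116).

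Vcan (chr13:89655312-89742509, minus strand) encodes versican, a large chondroitin sulfate proteoglycan that binds hyaluronan and CD44. Both 0 h samples had a count of 0. At 3 h the levels were 6.97, 2.88 and 7.62 CPM, at 6 h 0, 7.36 and 34.9 CPM, and at 12 h 15.5, 11.9 and 27.1 CPM. They were 46.1, 31.2 and 29.2 CPM at 18 h, 46.1 and 48.2 CPM at 24 h and 37.6, 21.6 and 29.8 CPM at 96 h. Every cultured sample except replicate 1 at 6 h held Vcan counts. Against the limit that a count of 0 allows at 0 h (the highest of the libraries' limits, 1.51 CPM), the mean was at least 3.86-fold higher at 3 h, 12.1-fold at 12 h, 31.3-fold at 24 h and 19.7-fold at 96 h. The call was made at each of the 6 timepoints, with adjusted p of 0.0680 at 3 h, 0.0107 at 12 h and 0.00877 at 24 h. The 3 h and 6 h calls were lost in a fit of the 2 groups alone (adjusted p = 0.140 and 0.244) and without either 0 h sample (adjusted p of 0.106 to 0.350). The 3 h call was also lost without replicate 1 or 3 at 3 h (adjusted p = 0.110 for each), and the 96 h call without replicate 2 at 0 h (adjusted p = 0.114). No later timepoint differed from its neighbour by the test. An antisense gene, Gm4117, overlaps the start of Vcan and held 221 counts in all samples together, beside 2170 for Vcan. Whether counting used the strand is not given in the sources used here.

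**Figure D2:**
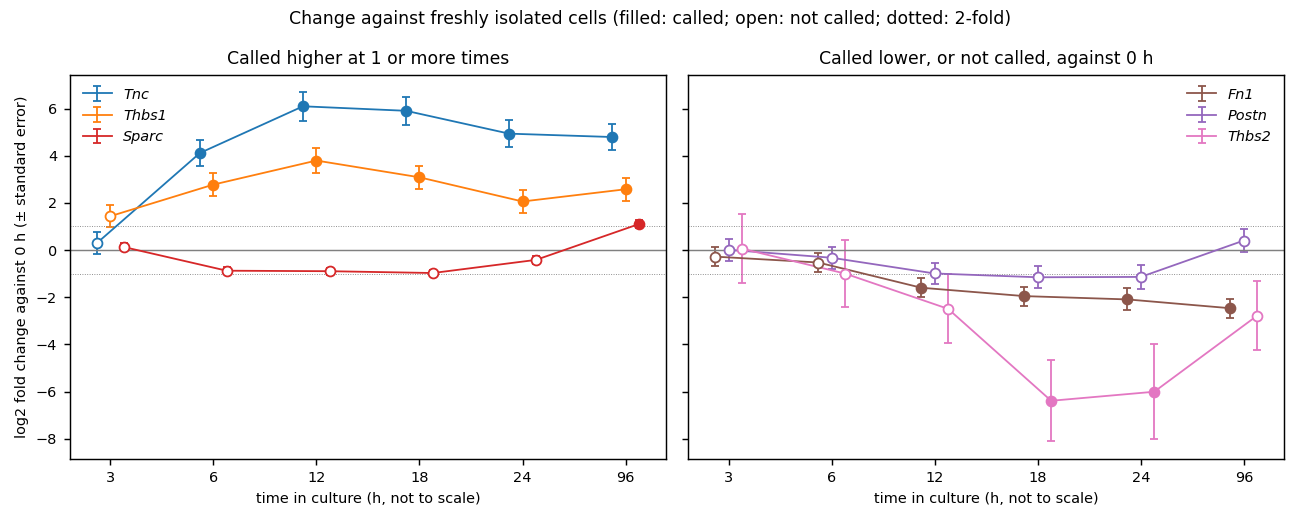
Fitted log2 fold change against 0 h (y axis) at each timepoint in culture (x axis, h, equally spaced) for 6 of the genes, with bars of 1 standard error. Filled points were called and open points were not, and dotted lines mark a 2-fold change. Tnc reaches 6.10 at 12 h and Thbs1 3.80, Sparc lies below 0 from 6 h to 24 h and at 1.10 at 96 h, and Fn1 reaches -2.47 at 96 h. Vcan and Spp1 are left out because they had groups with a count of 0.

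Sparc (chr11:55394500-55423183, minus strand) encodes osteonectin, a collagen-binding protein that takes part in fibril assembly. It held most counts of the 8 genes at 0 h, with 3163 and 3379 CPM, and the 3 h samples were at 3079, 3504 and 4164 CPM. At 6 h the samples were at 1534.5, 2021 and 1794 CPM, at 12 h at 1785, 1828 and 1659 CPM and at 18 h at 1557, 1596 and 1845 CPM. All 9 of these lay below every 0 h and 3 h sample. The level was 2596 and 2305 CPM at 24 h and 7247, 6552 and 7299.9 CPM at 96 h, above every earlier sample. Sparc fell from 3 to 6 h by 1.01 ± 0.13 SE on the log2 scale (adjusted p = 0.000687 in edgeR), a change just past the 2-fold limit. It was under that limit with scaling by library size alone (-0.90), in a fit of the 2 groups alone (-0.97), without replicate 3 at 3 h (-0.93) and without replicate 1 at 6 h (-0.91). Against 0 h the differences of -0.88 at 6 h, -0.90 at 12 h and -0.97 at 18 h passed the p threshold (adjusted p = 0.000903, 0.000458 and 0.000237) but not the fold limit. DESeq2 gave -1.11, -1.13 and -1.21 and called all 3. Sparc rose 2.87-fold from 24 to 96 h (log2 change 1.52 ± 0.16 SE, adjusted p = 5.64e-05) and from a mean of 1757 CPM at 12 h to 7033 CPM at 96 h (adjusted p = 1.77e-07), and each fit without 1 sample kept these calls. At 96 h it was 2.15-fold above 0 h (log2 change 1.10 ± 0.15 SE, adjusted p = 0.000164), which DESeq2 gave as 0.96, short of 2-fold.

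Postn (chr3:54361109-54391037, plus strand) encodes periostin, which binds collagen and promotes its cross-linking. The samples were at 236 and 173 CPM at 0 h and at 117, 199 and 301 CPM at 3 h. At 12 h they were at 62.5, 107 and 138 CPM, at 18 h at 41.2, 138 and 96.8 CPM and at 24 h at 70.4 and 115 CPM. Every sample of these 3 timepoints lay below both 0 h samples. At 96 h the levels were 243, 294 and 275 CPM, above every 0 h sample and every sample from 12 h to 24 h. The difference from 0 h was not called at any timepoint in edgeR; at 18 h the log2 change was -1.15 ± 0.47 SE (adjusted p = 0.126), and at 96 h 0.41 ± 0.48 SE (adjusted p = 0.701). With the replicate block Postn was called lower at 18 h (log2 change -1.01, adjusted p = 0.0784), and DESeq2 called it lower at 12, 18 and 24 h. From 12 to 96 h Postn rose by 1.40 ± 0.43 SE on the log2 scale (adjusted p = 0.0466), with log2 differences within replicates of 1.95, 1.45 and 0.99. The call was lost without replicate 1 or 2 at 12 h (adjusted p = 0.153 and 0.111) or replicate 2 or 3 at 96 h (adjusted p = 0.109 and 0.103). From 24 to 96 h the log2 change of 1.54 ± 0.50 SE had an adjusted p of 0.161 in edgeR and was not called. It was called with the replicate block (adjusted p = 0.0621), by DESeq2 (adjusted p = 0.0190) and in a fit of the 2 groups alone (adjusted p = 0.0479).

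Fn1 (chr1:71585520-71653200, minus strand) encodes fibronectin, the main adhesive protein of the provisional matrix, which hepatocytes also secrete into plasma. Reads from the 3' end of transcripts do not show which splice form was made. The samples were at 238 and 345 CPM at 0 h, at 226, 235 and 261 CPM at 3 h and at 208, 153 and 247 CPM at 6 h. At 12 h they were at 51.0, 102 and 136 CPM, at 18 h at 60.7, 43.9 and 121 CPM, at 24 h at 70.4 and 66.3 CPM and at 96 h at 63.7, 47.0 and 47.7 CPM. All samples from 12 h on lay below all samples from 0 to 6 h. Fn1 fell 3.03-fold from 0 to 12 h (log2 change -1.60 ± 0.40 SE, adjusted p = 0.0126 in edgeR) and 5.53-fold from 0 to 96 h (log2 change -2.47 ± 0.41 SE, adjusted p = 0.000781). Within replicates 2 and 3 the log2 difference of 96 h from 0 h was -2.33 and -2.85. The 12 h call was lost without replicate 3 at 0 h (adjusted p = 0.125). Fn1 fell 3.84-fold from 6 to 96 h (adjusted p = 0.00256). The step from 6 to 12 h (log2 change -1.07 ± 0.37 SE) had an adjusted p of 0.210 in edgeR and was called by DESeq2 (adjusted p = 0.0648).

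Hepatocyte markers fell over the series as Fn1 did, but earlier. Their sum was 13.1% of its 0 h mean at 3 h and 3.56% at 6 h, where Fn1 stood at 82.4% and 69.3% of its own 0 h mean. Between 6 and 96 h, the summed hepatocyte markers ranged from 4.04 to 389 CPM over all samples. Macrophage markers (7 genes) were at 340 to 376 CPM at 0 h and 34.7 to 42.6 CPM at 6 h, and 5 of the 7 were at 0 at 96 h. Sinusoidal endothelial markers (6 genes) made 405 to 595 CPM at 0 h, 641 to 2251 CPM at 3 h, 118 to 554 CPM from 12 to 24 h and 6.93 to 104 CPM at 96 h. Of the 6 markers of activated stellate cells or myofibroblasts, 4 were called higher at 96 h (Acta2, Tagln, Col1a1 and Timp1). Col3a1 was called lower there, where 10.9% of all tested genes were called. The sum of the stellate markers was 62.3% of its 0 h mean at 6 h, 18.9% at 12 h and 8.49% at 96 h. Single genes weigh heavily in these sums. At 0 h Dcn made 19179 of the mean of 33466.5 CPM of the stellate markers, and Alb 3130 of the 5285 CPM of the hepatocyte markers. The part of these markers in the changes of Fn1 and of the other genes was not tested.

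**Figure D3:**
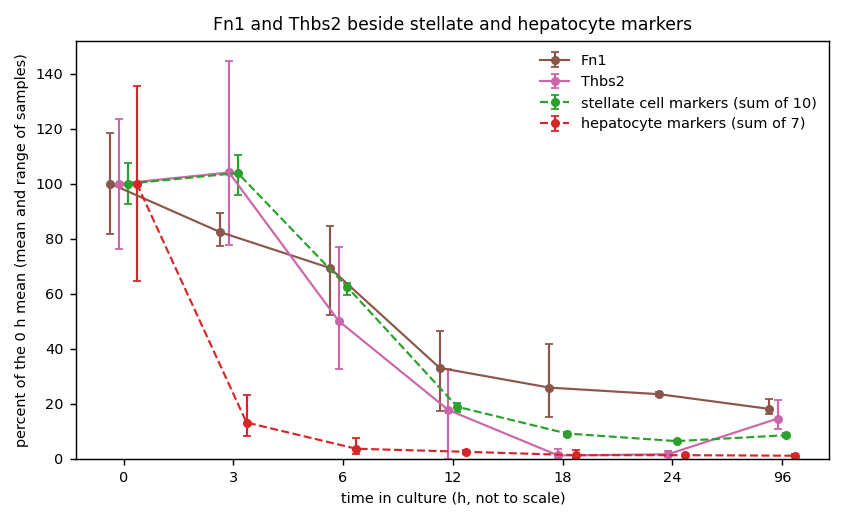
Level as a percentage of the 0 h mean (y axis) against time in culture (x axis, h, equally spaced) for Fn1, Thbs2 and the summed CPM of 10 stellate and 7 hepatocyte markers. Points are means and bars span the samples. Hepatocyte markers are at 13.1% by 3 h, whereas Fn1 is at 82.4% at 3 h and 33.0% at 12 h, and Thbs2 is at 1.12% at 18 h. Dcn and Alb hold the largest parts of the stellate and hepatocyte sums at 0 h.

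Thbs2 (chr17:14665500-14694235, minus strand) encodes thrombospondin 2, a close relative of thrombospondin 1 that lacks its ability to activate TGF-beta. It was at 38.1 and 61.8 CPM at 0 h, at 38.8, 44.8 and 72.3 CPM at 3 h and at 16.3, 20.3 and 38.4 CPM at 6 h. At 12 h the samples were at 0, 10.2 and 16.3 CPM, and at 18 h at 0, 0 and 1.68 CPM. The 18 h and 24 h samples (1.29 and 0.257 CPM) held 9 and 8 counts in all and lay below every sample of 0 to 6 h. At 96 h the levels were 5.45, 10.6 and 5.73 CPM, above every 18 h and 24 h sample and below every 0 h sample. Thbs2 was called lower at 18 h (log2 change -6.39 ± 1.71 SE, adjusted p = 0.0206 in edgeR) and at 24 h (log2 change -6.01 ± 2.00 SE, adjusted p = 0.0892). The 18 h call was just lost in a fit of the 2 groups alone (adjusted p = 0.1001). The 24 h call was lost with the replicate block (adjusted p = 0.199), with the isolation date as a factor (adjusted p = 0.103) and in each of 4 fits without 1 sample (adjusted p of 0.144 to 0.465). At 96 h the log2 change was -2.78 ± 1.47 SE (adjusted p = 0.294), and a fit of the 2 groups alone called it lower (adjusted p = 0.0395). At the same 18 h Thbs1 was called higher (log2 change 3.09 ± 0.49 SE, adjusted p = 0.000424).

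Spp1 (chr5:104435118-104441050, plus strand) encodes osteopontin, a secreted phosphoprotein that binds alpha v integrins and CD44 and that bile duct cells and macrophages of the liver also make. It was near the limit of these libraries, with 31 counts in both 0 h samples together (5.52 and 4.52 CPM), 16 at 3 h and 0 in all 3 samples at 6 h. From 12 to 24 h no sample exceeded 0.702 CPM. At 96 h the samples were at 2.29, 0.962 and 6.06 CPM, or 49 counts in all. Spp1 was called lower at 6 h than at 0 h (adjusted p = 0.0211 in edgeR) and than at 3 h (adjusted p = 0.0871), and higher at 96 h than at 6 h (adjusted p = 0.0234), at least 3.49-fold against the limit of a count of 0. DESeq2 gave no adjusted p for these comparisons. The call between 3 and 6 h was lost with the replicate block (adjusted p = 0.168), with the isolation date as a factor (adjusted p = 0.113), without the filter (adjusted p = 0.301) and in each of 6 fits without 1 sample (adjusted p of 0.106 to 0.217). The 6 h call against 0 h was lost in a fit of the 2 groups alone (adjusted p = 0.129), and the 96 h call against 6 h without the filter (adjusted p = 0.107). At 96 h against 0 h the log2 change was -0.69 ± 1.59 SE (adjusted p = 0.893). Of 5 cholangiocyte markers 4 were at 0 in the 0 h samples and 4 at 96 h, with sums of 5.27 to 14.6 CPM and 0 to 2.87 CPM. Their part and that of the macrophage markers in the Spp1 counts were not tested.

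Summed over the 8 genes, the level of the 2 samples at 0 h was 3889 ± 215 CPM (mean ± SD). That of the 3 samples at 6 h was 2993 ± 470.0 CPM, and at 12 h it was 4741 ± 1256 CPM. By 96 h the sum had reached 8525 ± 391 CPM. The 96 h samples lay above those of every other timepoint. Sparc held 84.1% of the counts of the 8 genes at 0 h, 39.2% at 12 h and 82.5% at 96 h, whereas Tnc held 0.867% at 0 h and 47.0% at 12 h. At 12 h Tnc held 34.6% to 54.3% and Sparc 27.9% to 52.0% in single samples, and in replicate 1 Sparc (1785 CPM) stood above Tnc (1187 CPM). These shares describe reads taken from transcript 3' ends.

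**Figure D4:**
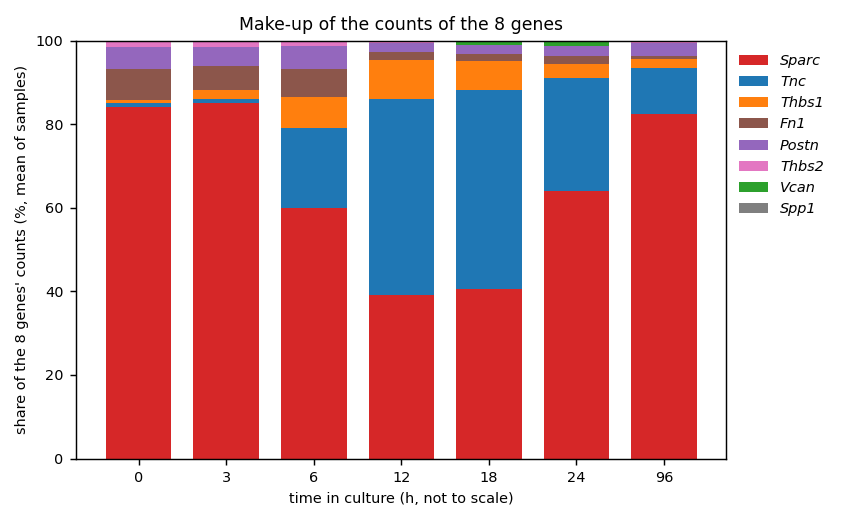
Share of the counts of the 8 genes held by each gene (y axis, percent, mean of the samples) at each timepoint (x axis, h, equally spaced), stacked to 100%. Sparc holds 84.1% at 0 h, 39.2% at 12 h and 82.5% at 96 h, and Tnc holds 47.0% at 12 h.

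Across the 19 samples, Thbs1 and Tnc had a Pearson r of 0.83 in log2 CPM, Thbs2 and Fn1 0.83, Postn and Sparc 0.69 and Tnc and Fn1 -0.71. These values are descriptions over samples that share libraries and a time course. Among 8581 genes whose mean reached 10 CPM, the 3 most like Tnc were Ankrd1 (r = 0.99), Tagln (0.98) and Pgd (0.98). The 3 most like Fn1 were Reln (0.93), a stellate marker, Marcks (0.92) and Itga2b (0.92). Thbs1 was most like Ghitm (0.92), Pak1ip1 (0.91) and Aldh18a1 (0.91), and Thbs2 most like Serping1 (0.92), Itga1 (0.90) and Itpr1 (0.90). Sparc was most like Tuba1b (0.96), AC157548.1 (0.95) and Ankrd55 (0.94), Postn most like Plac8 (0.87), Itm2c (0.87) and Sat1 (0.85), and Vcan most like Edn1 (0.95), Sqle (0.88) and Gm9703 (0.85).

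Of 17 receptors for these proteins 16 were tested. At 3 h 2 were called higher and none lower (5.58% of all tested genes were called), at 18 h 1 was higher and 8 were lower (15.9%), and at 96 h 2 were higher and 4 lower (10.9%). The median log2 change of the receptors was -1.64 at 18 h and -0.35 at 96 h, beside 0 and 0.07 over all tested genes. Cd44, the receptor for hyaluronan and osteopontin, rose at all 6 timepoints, from 24.5 CPM (19.3 to 29.6) at 0 h to 459 CPM (410 to 542) at 18 h (log2 change 4.24 ± 0.42 SE, adjusted p = 3.42e-06 in edgeR). Itga9, the tenascin C-binding integrin chain, fell from 578 CPM (490.1 to 665) to 204 CPM (183 to 226) at 96 h (adjusted p = 0.000295). Itga8, a chain of a fibronectin and osteopontin receptor, fell from 232 CPM (203 to 262) to 0.892 CPM (0 to 1.93) at 18 h (adjusted p = 0.00507). At 96 h Itga8 was not called. Cd47, a thrombospondin receptor, was called lower at 96 h, at 129.7 CPM (126 to 134) against 377 CPM (347 to 406) at 0 h (adjusted p = 6.37e-05). Itgb1, the shared beta chain, was not called at any timepoint; its log2 change at 3 h was 0.91 ± 0.19 SE (adjusted p = 0.00962), under the 2-fold limit. Itgav and Itga5 were not called either, and Itgb3 was called lower at 18 h alone (adjusted p = 0.0567).

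**Figure D5:**
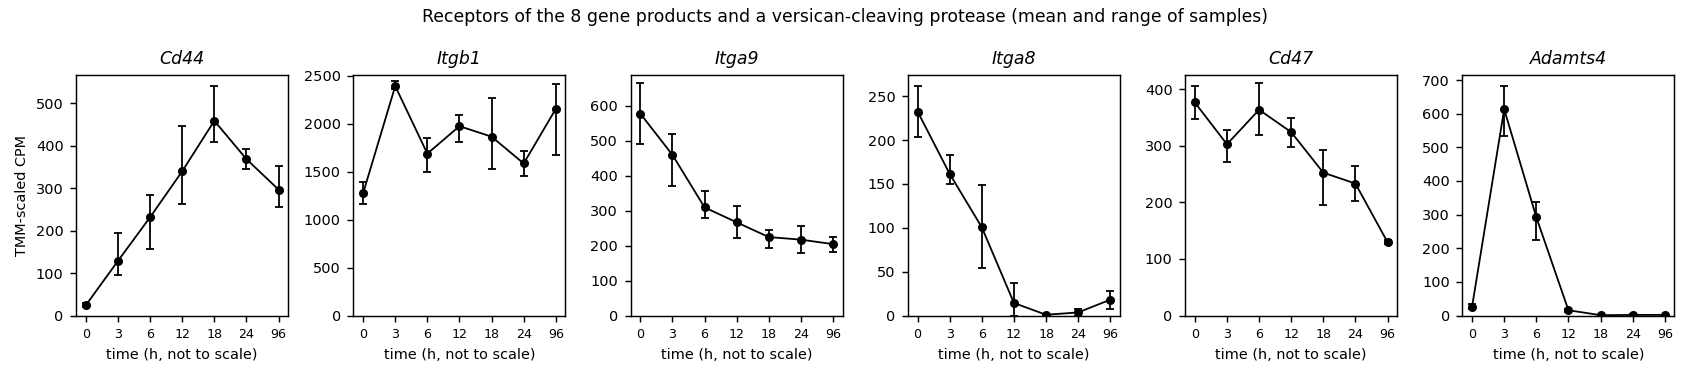
Level (y axis, TMM-scaled CPM on linear axes from 0) against time in culture (x axis, h, equally spaced) for 5 receptors and the protease Adamts4. Points are means and bars span the samples. Cd44 goes from 24.5 to 459 CPM at 18 h, and Adamts4 stands at 613 CPM at 3 h. Itga9, Itga8 and Cd47 are lower at 96 h than at 0 h in every sample, but Itga8 was not called at 96 h.

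Of 19 other matricellular genes 10 were tested, and 3 were called higher and 4 lower at 12 h, where 17.7% of all tested genes were called. Ccn2, also known as connective tissue growth factor, rose from 249 CPM (114 to 384) at 0 h to 16304 CPM (12216 to 20611) at 12 h (log2 change 6.04 ± 0.55 SE, adjusted p = 1.74e-06 in edgeR) and stood at 1352 CPM (834 to 1902) at 96 h. Ccn1, a related integrin ligand, was called higher from 6 to 24 h, with 2467 CPM (2201 to 2761) at 6 h against 444 CPM (297 to 590.5) at 0 h (adjusted p = 0.00155), and was not called at 96 h (608 CPM, adjusted p = 0.571). The 4 genes called lower at 12 h were Tnxb, Sparcl1, Smoc2 and Tgfbi.

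Of 16 partner genes of the provisional matrix 13 were tested, and at 96 h 1 was called higher and 6 lower, where 10.9% of all tested genes were called. Tnfaip6, whose product modifies hyaluronan, was the gene called higher at every timepoint, and the fibrinogen chains Fga, Fgb and Fgg and the small proteoglycans Dcn and Lum were among the 6 called lower at 96 h. Fibrinogen is a product of hepatocytes, and Fgb is also in the hepatocyte marker list. The hyaluronan synthase Has2 had a count of 0 in all samples at 5 of the 7 timepoints, was at most 0.526 CPM elsewhere and was not tested. Fbln2, a versican-binding fibulin, was not called at any timepoint (7.28 CPM at 0 h and 19.7 CPM at 96 h, adjusted p = 0.558).

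Of 6 proteases that cleave versican 5 were tested. At 3 h 1 was called higher and none lower (5.58% of all tested genes were called), and at 24 h none was higher and 3 were lower (9.51%). Adamts5 was called lower at each timepoint from 6 to 24 h, and Adamts9 at 12 h alone. Adamts4 rose from 26.6 CPM (20.1 to 33.1) at 0 h to 613 CPM (534 to 682) at 3 h (log2 change 4.52 ± 0.92 SE, adjusted p = 0.00808 in edgeR) and was called lower at 18 h, at 1.12 CPM (0.702 to 1.68, adjusted p = 0.00242). Adamts4 was also called higher at 6 h and lower at 24 h and 96 h. Adamts1 was called lower at 24 h (log2 change -1.05 ± 0.35 SE, adjusted p = 0.0912) and at no other timepoint. Among the 3 TGF-beta ligands, 2 were called higher at 6, 12 and 18 h (11.3%, 17.7% and 15.9% of all tested genes), Tgfb2 and Tgfb3. Tgfb2 was also called higher at 3 h (5.58%), and Tgfb3 at 24 h and 96 h (9.51% and 10.9%). Tgfb1 was not called at any timepoint (log2 change 1.36 ± 0.69 SE at 3 h, adjusted p = 0.375).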

How the data were processed

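HSCs were measured in 19 samples by QuantSeq 3' mRNA-Seq with single-end reads. The authors trimmed and aligned the reads with STAR to mm10 and used StringTie, and deposited raw counts per Ensembl gene. Versions, the counting program and the use of strand are not given in the sources used here. Counts were scaled with TMM factors and tested in edgeR 4.0.16 (R 4.3.3) with filterByExpr and the quasi-likelihood F test on all 19 samples with time as the factor, adjusted by the Benjamini-Hochberg method over 15138 genes. The standard error is the log2 change divided by the square root of F. Alternatives were library size scaling, DESeq2 1.42.0, no filter, the replicate number as a block, isolation date as a factor, the 2 groups alone and each sample left out. The pairing follows the replicate number in the labels, and samples with the same number share an isolation date. Deviations correlated at 0.01 on average over 51 pairs with the same number, and at -0.01 over 103 others. Replicate pairs differed by more than sampling noise, with chi-square over degrees of freedom of 20.7 to 58.3. Replicates 1 and 3 come from the same isolation date and replicate 2 from another, and the labels do not say which animals gave each sample, so p-values measure the spread between these samples, which may in part be technical. The correlation of log2 CPM used a prior count of 2. The scripts were tested on simulated data.

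The 8 genes and the lists of related genes were chosen with earlier results of these data known. Genes outside the 8 were named from a list of receptors, partners, proteases and ligands set out by role, and the 3 genes most like each of the 8 by correlation. For Spp1, too low for the 10 CPM minimum, none are given. Gene positions are from GENCODE and promoter windows from RefSeq, both on GRCm38.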

Additional observations from a re-analysis of the deposited data

How the results depend on the processing

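Direction and call were kept in 561 of 603 values under the alternatives that kept all samples, and in 201 of 217 called values. With 1 sample left out, 483 of 552 values kept both, as did 153 of 192 called values. Library size scaling altered the log2 change of each gene, by a median over all genes of 0.23 at 18 h, 0.27 at 24 h and 0.14 at 96 h against 0 h, and of 0.11 from 3 to 6 h, 0.14 from 12 to 18 h and -0.13 from 24 to 96 h. The median log2 change itself went from 0 to 0.08 at 18 h, from 0 to 0.24 at 24 h and from 0.07 to 0.22 at 96 h against 0 h. It put the summed level of the 8 genes at 3609 CPM at 0 h and 4299.7 CPM at 24 h. Depth limits Vcan and Spp1, whose groups held counts of 0, and the 2 samples at 0 h limit every comparison with them. The causes of these shifts were not tested.

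DESeq2 called 2 of the 8 genes at 3 h against 0 h, 2 from 6 to 12 h, 1 from 12 to 18 h and 2 from 24 to 96 h. With the replicate block, the paired fit, 2 were called from 3 to 6 h and 2 from 24 to 96 h, and the block changed no call other than those given beside the results. A fit of the 2 groups alone called 2 at 6 h against 0 h, 2 from 3 to 6 h and 2 from 24 to 96 h. Leaving out 1 sample gave 0 to 1 calls at 3 h and 3 to 4 at 24 h against 0 h, 1 to 3 from 3 to 6 h, 0 to 1 from 6 to 12 h and 2 to 4 from 12 to 96 h.

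The log2 changes that turned sign were not called in either fit. With library size scaling they were Thbs2 (-0.0047) and Postn (-0.033) at 3 h against 0 h, and Sparc from 6 to 12 h (0.024) and from 12 to 18 h (0.062). DESeq2 gave -0.034 for Thbs2 and -0.082 for Postn at 3 h against 0 h. The replicate block gave 0.12 for Fn1 from 18 to 24 h and 0.28 for Thbs2 from 12 to 96 h, and the isolation date gave -0.017 for Postn from 18 to 24 h. With 1 sample left out, the changes at 3 h against 0 h spanned -0.22 to 0.44 for Thbs2, -0.33 to 1.40 for Tnc, -0.33 to 0.32 for Postn and -0.49 to 0.0061 for Fn1. Vcan spanned -0.64 to 1.86 from 3 to 6 h and -0.22 to 2.28 from 6 to 12 h, where Sparc spanned -0.12 to 0.12. From 6 to 96 h Thbs1 spanned -0.59 to 0.15. From 12 to 18 h Tnc spanned -0.50 to 0.12 and Postn -0.59 to 0.19, and from 12 to 96 h Thbs2 spanned -0.86 to 0.50. From 18 to 24 h the spans were -1.04 to 4.89 for Thbs2, -0.33 to 0.47 for Postn, -4.48 to 0.18 for Spp1 and -0.37 to 0.39 for Fn1. From 24 to 96 h Tnc spanned -0.41 to 0.18.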
